A study of Mus musculus with 283 samples.

Results

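The tumours described here are those of the transplantable mouse mammary model p53-2225L, sampled 3 days into treatment with antibodies against PD1 and CTLA4 or without treatment. They were chosen by their labels alone, as the tumour libraries with model p53-2225L and time 3 day, and there were 9 of them among the 283 samples of the series. The series compared mammary tumour models labelled sensitive or resistant to checkpoint therapy, and p53-2225L carried the label resistant. A label of the model's DNA sample gives the strain as BalbC and the line as p53 null.

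Of the 9 libraries, 5 came from tumours treated with both antibodies and 4 from untreated tumours, and the comparison asks which transcripts differed between them early in therapy. Tumours had been transplanted into the mammary gland site of syngeneic hosts and entered the study at a diameter of 5 mm, so both groups are grafts of 1 tumour line. Treated mice received antibody to CTLA4 at 125 ug and antibody to PD1 at 10 mg per kg, injected into the peritoneum in 100 ul, on a schedule the labels call bi-weekly; the labels name no injection for the untreated mice. RNA of tumour tissue was sequenced, so host stroma, vessels and immune cells contribute to every value. The labels state 3 day for both groups, but the header of the deposited table gives Pretreatment as the time of all 4 untreated libraries and 3 day for all 5 treated ones. If the header holds, the time since entry and the therapy cannot be told apart. The labels do not say that the libraries came from separate mice, so p-values measure the spread between libraries.

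PD1 and CTLA4 are inhibitory receptors of T cells. CTLA4 competes with CD28 for the ligands CD80 and CD86 when a T cell is primed, and PD1 dampens T cells in the tissue when it meets its ligand PD-L1, which the gene Cd274 encodes. In tumours that respond, blocking antibodies release T cells that make interferon gamma, which induces Cd274, the chemokines Cxcl9 and Cxcl10 and the genes of antigen presentation in the cells around them. Oxygen shortage is another common state of solid tumours: the factor HIF accumulates and induces Vegfa, glucose transporters and enzymes of glycolysis.

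All values below are log2(signal + 1), where signal is the authors' upper quartile normalised value per gene, and a difference is the treated mean minus the untreated mean on that scale. Each difference was tested with limma across 20848 genes, with p-values adjusted by the Benjamini-Hochberg method, and a gene was called at an adjusted p under 0.05. For single genes an exact two-sided permutation p over all ways to split the 9 libraries is added, for which the smallest possible value is 0.0159. A gene whose groups do not overlap always has this value, so there it restates the lack of overlap and adds no support.

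Treated libraries held an estimated 37.7 to 66.8 M reads and untreated libraries 38.2 to 51.4 M. The epithelial tumour markers Epcam, Krt8, Krt18, Krt5, Krt14 and Cdh1 summed to 17.17 to 18.38 in treated and 17.33 to 17.69 in untreated libraries, so both groups held abundant epithelium. Untreated libraries 2 and 4 stood apart in the skeletal muscle markers Acta1, Ckm and Myh4, whose sum was 14.31 and 14.73 there, against 8.34 and 5.23 in untreated libraries 1 and 3 and 4.26 to 10.56 in the treated ones. The adipocyte markers Adipoq, Plin1 and Cidec summed to 8.43, 7.53, 2.52, 4.39 and 4.40 in treated and 2.86, 7.43, 1.97 and 6.75 in untreated libraries. Treated libraries 1 to 3 and untreated libraries 1 and 2 shared flow cell CAVF1ANXX. Treated libraries 4 and 5 ran on CB7RRANXX and untreated libraries 3 and 4 on CBCGAANXX, so flow cell and treatment cannot be told apart for those 4. These flow cells are called the later ones below, as a name for the set and not for a known order of runs. Every value within the later flow cells thus compares treated libraries of CB7RRANXX with untreated libraries of CBCGAANXX. Trp53, the gene that encodes p53, read 12.55, 13.51, 13.64, 13.52 and 13.29 in treated and 12.71, 11.81, 12.98 and 13.06 in untreated libraries. A gene total does not show which exons were read, so it does not check the p53 null genotype.

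No gene was called in either direction: 0 of 20848, or 0%. The smallest adjusted p was 0.095, for the unannotated transcript 2810410L24Rik, which was 1.76 higher in treated tumours. At an unadjusted p under 0.05 in limma, 834 genes (4.00% of those tested) were higher and 378 (1.81%) lower. Whatever the p, 11076 of the 20848 genes were higher and 9674 lower. Counts of list members below stand against these numbers for all genes. The lists were chosen with earlier results of these data known, so such a count describes a list and does not test it. Every treated library lay above every untreated one for 323 genes (1.55%) and below for 143 (0.686%). The median difference over all genes was 0.024 and the median standard error 0.391. With a pseudocount of 16 in place of 1, which damps low values, 61 genes were called, 39 higher (0.187%) and 22 lower (0.106%), and 29 of them were predicted genes or receptor segments.

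Single genes were taken from those whose mean over all samples of the fit was above the median of the genes tested. Among them, the smallest unadjusted p on the higher side belonged to Fos, Efna1, Slc2a3, Mgst2, Hoxa10 and Ramp3, and none was called. Fos, a subunit of the AP-1 transcription factor that is induced within minutes of many stimuli, read 10.71, 13.26, 12.61, 11.21 and 11.54 in treated libraries, against 9.37, 9.03, 11.10 and 9.73 in untreated ones. Only treated library 1 fell below an untreated one, the untreated library 3. The difference was 2.06 ± 0.46 (standard error), which is 4.18-fold, with an adjusted p of 0.132 in limma and an exact permutation p of 0.0317; it was 2.99 within flow cell CAVF1ANXX and 0.97 within the later ones. Slc2a3, the glucose transporter GLUT3, read 7.65, 9.38, 9.77, 9.70 and 8.90 in treated and 7.12, 6.28, 8.13 and 7.53 in untreated libraries. Again treated library 1 alone lay within the untreated range, and the difference was 1.82 ± 0.43 with an adjusted p of 0.139 in limma, 2.24 within flow cell CAVF1ANXX and 1.47 within the later ones.

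Efna1, a membrane-bound ligand of Eph receptors, averaged 11.80 ± 0.51 in treated and 10.78 ± 0.51 in untreated tumours (SD, n = 5 and 4), a difference of 1.02 ± 0.24 with an adjusted p of 0.139 in limma. Mgst2, a microsomal glutathione transferase, was the gene of the 6 whose groups did not overlap: 9.96, 7.96, 7.49, 7.14 and 8.04 in treated against 6.80, 4.10, 6.98 and 6.06 in untreated libraries, a difference of 2.13 ± 0.51 with the same adjusted p. Its difference was 1.23 without untreated libraries 2 and 4. Hoxa10, a homeobox factor, was 1.77 higher with an adjusted p of 0.139 in limma, and 0.98 higher without treated library 1, which read 8.86 where the other treated libraries read 4.62 to 5.29. Ramp3, the accessory protein that turns the calcitonin receptor-like receptor into a receptor for adrenomedullin, averaged 7.54 ± 1.04 in treated and 5.83 ± 0.94 in untreated tumours (SD, n = 5 and 4).

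On the lower side the smallest unadjusted p belonged to Slc10a3, Tpgs2, Galnt7, Atp6v0a2, Aen and Ccne1, again with none called. Their differences ran from -0.96 for Ccne1 to -0.49 for Atp6v0a2, a subunit of the vacuolar proton pump. Aen, an apoptosis-enhancing nuclease, read 10.91, 9.56, 9.30, 11.13 and 10.91 in treated and 11.10, 10.99, 10.81 and 11.47 in untreated libraries. Treated libraries 2 and 3 were the low ones, as they were for Slc10a3 with 7.65 and 7.76 against 8.99, 9.28 and 9.14 in the other treated libraries and 9.09 to 9.45 in untreated ones. Galnt7, an enzyme that starts mucin-type glycans, averaged 9.36 ± 0.45 in treated and 10.27 ± 0.65 in untreated tumours (SD, n = 5 and 4), a difference of -0.90 ± 0.24 with an adjusted p of 0.213 in limma.

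Hypoxia and glycolysis genes shared a direction. All 14 members were higher on average in treated tumours, by 0.33 to 2.06 with a median of 1.34, against 0.024 over all genes tested. Of the 14, 10 had an unadjusted p under 0.05 in limma, where 4.00% of all genes did in that direction. The list was not chosen independently of these data, so this count is not a test of it. None was called and none had groups that stayed apart. The count of 10 used a spread shared by all 47 groups of the fit. With the spread of the 2 groups compared alone it was 6, and with that of the 4 p53-2225L groups it was 12. In bulk tissue, a change in the share of a cell type and a change in RNA per cell cannot be told apart.

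The group's promoters are printed for 4 members to show the sequence that HIF is known to read, whose core is ACGTG or GCGTG. The lines give the 250 bases before the RefSeq start of the gene on build GRCm38.p6, in the direction of transcription, with each match on either strand in capitals; CACGT and CACGC are the cores as they read on the other strand. Vegfa had the smallest p of the group, Adm the largest difference, and Ldha and Bnip3 the most matches.
Vegfa, chr17:46032378-46032627, minus strand: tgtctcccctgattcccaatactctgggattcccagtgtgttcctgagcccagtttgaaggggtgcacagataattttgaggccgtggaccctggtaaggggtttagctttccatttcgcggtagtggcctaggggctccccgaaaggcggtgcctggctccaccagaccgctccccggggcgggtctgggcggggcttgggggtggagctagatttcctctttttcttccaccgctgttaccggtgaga
Adm, chr7:110627407-110627656, plus strand: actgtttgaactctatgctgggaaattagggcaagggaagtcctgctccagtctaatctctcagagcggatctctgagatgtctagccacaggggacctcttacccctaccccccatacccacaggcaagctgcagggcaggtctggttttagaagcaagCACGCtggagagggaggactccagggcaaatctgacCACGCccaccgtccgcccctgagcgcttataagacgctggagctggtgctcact
Ldha, chr7:46845554-46845803, plus strand: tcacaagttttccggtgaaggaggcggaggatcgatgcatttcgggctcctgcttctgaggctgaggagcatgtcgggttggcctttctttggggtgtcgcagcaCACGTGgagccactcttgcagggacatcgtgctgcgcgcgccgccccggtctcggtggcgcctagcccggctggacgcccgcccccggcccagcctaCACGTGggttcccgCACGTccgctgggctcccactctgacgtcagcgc
Bnip3, chr7:138909507-138909756, minus strand: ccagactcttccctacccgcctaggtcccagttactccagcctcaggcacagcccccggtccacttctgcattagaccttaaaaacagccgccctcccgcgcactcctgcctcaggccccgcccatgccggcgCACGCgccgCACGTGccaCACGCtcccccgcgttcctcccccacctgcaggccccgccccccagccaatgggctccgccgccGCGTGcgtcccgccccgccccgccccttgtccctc

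Of the 13 members found in the RefSeq table, 11 (84.6%) held a match in this window, against 38.6% of the 32851 promoters searched. ACGTG occurred in 8 members and 16.6% of all promoters, and GCGTG in 6 members and 28.2% of all. A palindromic CACGTG, as in Ldha and Bnip3, was counted on both strands. The window of Vegfa held 0 matches and those of Ldha and Bnip3 held 5 each, so the number of matches did not order the members as their differences did: Ldha had the smallest difference of the group. The members were chosen as hypoxia and glycolysis genes, so their share of matches is a property of the list and not a result about these tumours. The letters describe the window and do not show that a factor was bound.

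Among the secreted factors of the group, Vegfa (chr17:46016993-46032369, GRCm38), the main growth signal for blood vessels, read 13.91, 15.82, 16.28, 15.06 and 15.92 in treated libraries, against 13.88, 12.25, 14.99 and 13.93 in untreated ones. Treated libraries 2 to 5 all lay above every untreated library, and treated library 1 lay among the untreated ones. The difference was 1.63 ± 0.44, or 3.11-fold, with an adjusted p of 0.213 in limma and an exact permutation p of 0.0476; it was 2.27 within flow cell CAVF1ANXX, 1.03 within the later ones and 0.96 without untreated libraries 2 and 4. Adm (chr7:110627661-110629820), the vasodilator peptide adrenomedullin whose receptor Ramp3 helps to form, read 7.66, 10.78, 10.52, 9.99 and 10.83 in treated and 7.73, 6.72, 9.24 and 7.91 in untreated libraries. Its groups too were separated by all but treated library 1, and its difference of 2.06 ± 0.59 was 4.16-fold, with an adjusted p of 0.237 in limma. It was 2.43 within flow cell CAVF1ANXX and 1.84 within the later ones.

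Ndrg1 (chr15:66929318-66969640), a stress-responsive gene widely used as a marker of hypoxia, read 13.60, 17.38, 17.36, 15.94 and 16.52 in treated and 14.42, 12.57, 15.90 and 14.82 in untreated libraries. The 2 highest values were those of treated libraries 2 and 3, and the difference was 1.73 ± 0.49 with an adjusted p of 0.214 in limma, 2.62 within flow cell CAVF1ANXX and 0.87 within the later ones. Car9, a carbonic anhydrase that exports acid, read 7.62, 10.87, 11.25, 9.80 and 10.88 in treated and 8.42, 7.41, 9.49 and 8.23 in untreated libraries. Here treated library 1 was lower than 3 of the 4 untreated libraries. The difference was 1.70 ± 0.72 with an adjusted p of 0.711 in limma. Egln3, an oxygen-sensing prolyl hydroxylase that HIF itself induces, averaged 12.56 ± 1.26 in treated and 10.96 ± 1.22 in untreated tumours (SD, n = 5 and 4). Bnip3, a mitochondrial protein that promotes mitophagy, averaged 13.76 ± 1.25 in treated and 12.39 ± 0.83 in untreated tumours. Ankrd37, an ankyrin repeat gene induced by HIF, averaged 10.60 ± 0.85 in treated and 9.06 ± 1.14 in untreated tumours.

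Among the members of the list that serve sugar uptake and glycolysis, the differences were 1.32 or less. Slc2a1, the glucose transporter GLUT1, read 12.03, 14.85, 14.77, 13.96 and 14.45 in treated and 12.41, 11.77, 13.58 and 13.02 in untreated libraries, a difference of 1.32 ± 0.46. Hk2, the hexokinase that traps glucose in the cell, differed by 1.08 ± 0.40. Both had treated libraries 2 to 5 above all 4 untreated ones and treated library 1 below 3 of them. The later enzymes Eno1 (0.71 ± 0.24), Aldoa (0.75 ± 0.40), Pgk1 (0.54 ± 0.31) and Ldha (0.33 ± 0.28), and Pdk1 (0.52 ± 0.33), the kinase that keeps pyruvate out of mitochondria, followed at lower differences, and of these only Eno1 had an unadjusted p under 0.05 (0.00366, adjusted p 0.486 in limma).

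**Figure D1:**
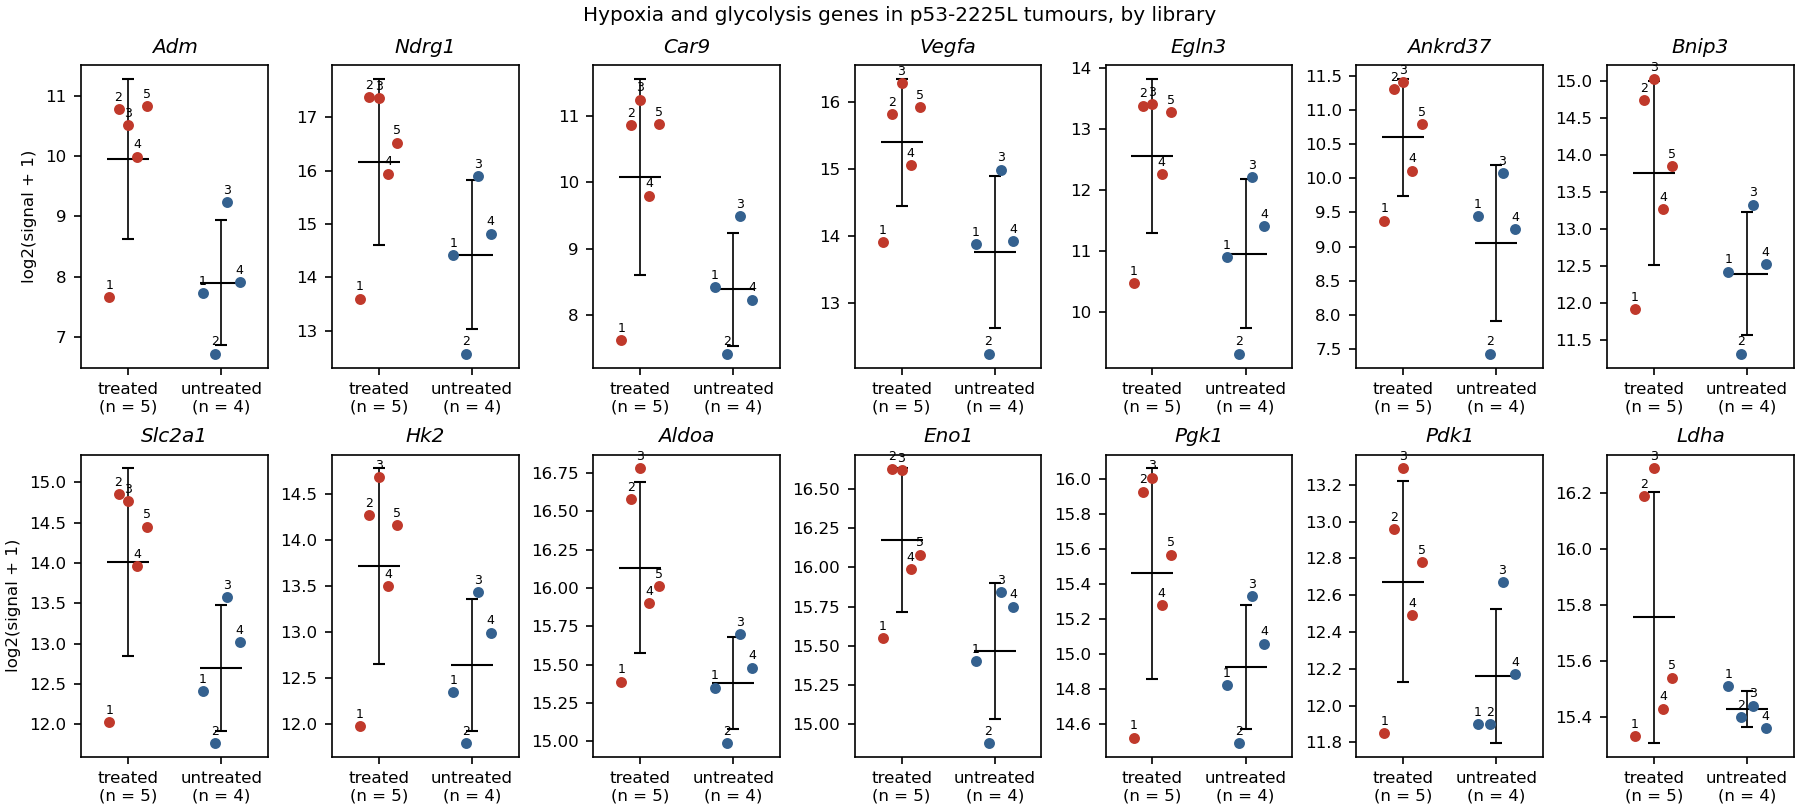
Level of hypoxia and glycolysis genes in each p53-2225L 3 day library, as log2(signal + 1) on the vertical axis, with treated libraries left of untreated ones, numbers naming the libraries and bars giving mean and SD. Treated library 1 sits with the untreated libraries and untreated library 2 is the lowest of the 9 in 12 of the 14 panels.

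The mean level of the 14 genes was 12.23, 14.41, 14.55, 13.50 and 14.05 in treated and 12.50, 11.59, 13.37 and 12.71 in untreated libraries. It was lowest in untreated library 2, next lowest in treated library 1, and highest in treated libraries 2 and 3. Within flow cell CAVF1ANXX the median difference was 1.90, with 10 members at an unadjusted p under 0.05; within the later flow cells it was 0.71, with 1 member. Without untreated libraries 2 and 4, those high in muscle genes, it was 0.86 with 1 member, and without untreated library 2 alone it was 1.00 with 4 members. Untreated library 2 thus carried part of the size of the difference, while all 14 members stayed higher in treated tumours in each of these fits.

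Leaving out treated library 1 had the opposite effect. The median difference became 1.82, 50 genes were called over the whole table, 42 higher (0.201%) and 8 lower (0.0384%), and 3 of them were members of the hypoxia group. These were Ndrg1 at 2.37 ± 0.49 (adjusted p 0.00728 in limma), Vegfa at 2.01 ± 0.46 (adjusted p 0.0203 in limma) and Adm at 2.63 ± 0.61 (adjusted p 0.0203 in limma). Outside the list, Fgf11, Fos, Icosl, Nxph4, Plekha2, Ramp3 and Slc2a3 had the same adjusted p as Ndrg1, 0.00728 in limma. Several further called genes are named here after their values were seen and for what they encode. They do not describe the 50 genes as a whole. Egln1, the main oxygen-sensing prolyl hydroxylase, was 1.14 ± 0.25 higher; Ero1l, the oxidase of disulfide formation in the endoplasmic reticulum, 2.12 ± 0.49; and P4ha2, a subunit of collagen prolyl hydroxylase, 2.05 ± 0.45. Eno2, an enolase, was 2.62 ± 0.58 higher, Gpi1, the glucose phosphate isomerase, 1.06 ± 0.25, Gys1, glycogen synthase, 1.35 ± 0.34, and Ddit4, an inhibitor of mTORC1 signalling that is induced by stress, 1.54 ± 0.35. The labels give treated library 1 the same model, time, therapy and flow cell as treated libraries 2 and 3, and differ only in writing 2225l for 2225L, as they do for untreated library 1. The fit with all 9 libraries remains the result of the comparison.

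Blood and vessel genes were read beside this group, since blood and endothelium are part of each tumour piece. All 8 erythroid genes tested were higher in treated tumours, with a median difference of 1.76. Of these, 5 had an unadjusted p under 0.05 in limma, as 4.00% of all genes tested did in that direction. With the spread of the 2 groups compared alone the count was 1, and with that of the 4 p53-2225L groups it was 0. The mean level of the 8 genes was 9.40, 9.66, 10.28, 10.15 and 10.62 in treated and 8.82, 5.92, 10.63 and 7.74 in untreated libraries. The groups overlapped: untreated library 3 was the highest of all 9 and untreated libraries 2 and 4 the lowest. Without those last 2 the erythroid median was 0.30. Slc4a1, the anion exchanger of the red cell membrane, illustrates the spread, with 5.48 to 6.64 in treated libraries and 3.46, 1.01, 7.49 and 1.98 in untreated ones.

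Of 13 endothelial genes, 10 were higher in treated tumours, with a median difference of 0.29 and 1 gene at an unadjusted p under 0.05. That median was 0.00 within flow cell CAVF1ANXX and 0.68 within the later ones. The summed markers Pecam1 and Cdh5 ranged from 11.58 to 13.27 in treated and 11.87 to 12.04 in untreated libraries. The gene with the unadjusted p under 0.05 was Cldn5, the tight junction protein of endothelium, with 8.36, 10.68, 9.93, 10.09 and 9.76 in treated and 8.37, 7.68, 9.60 and 7.57 in untreated libraries, a difference of 1.46 ± 0.41 and an adjusted p of 0.215 in limma. Treated library 1 was once more the one that did not separate. The 15 skeletal muscle genes were all lower in treated tumours, with a median of -1.92 and none at an unadjusted p under 0.05, and the median was 1.09 without untreated libraries 2 and 4. Treated library 1 and untreated library 2, the lowest in hypoxia genes, were also among the 4 libraries highest in adipocyte markers, as was treated library 2, which was among the highest in hypoxia genes. The part that muscle, fat and blood play in the hypoxia values was not tested.

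**Figure D2:**
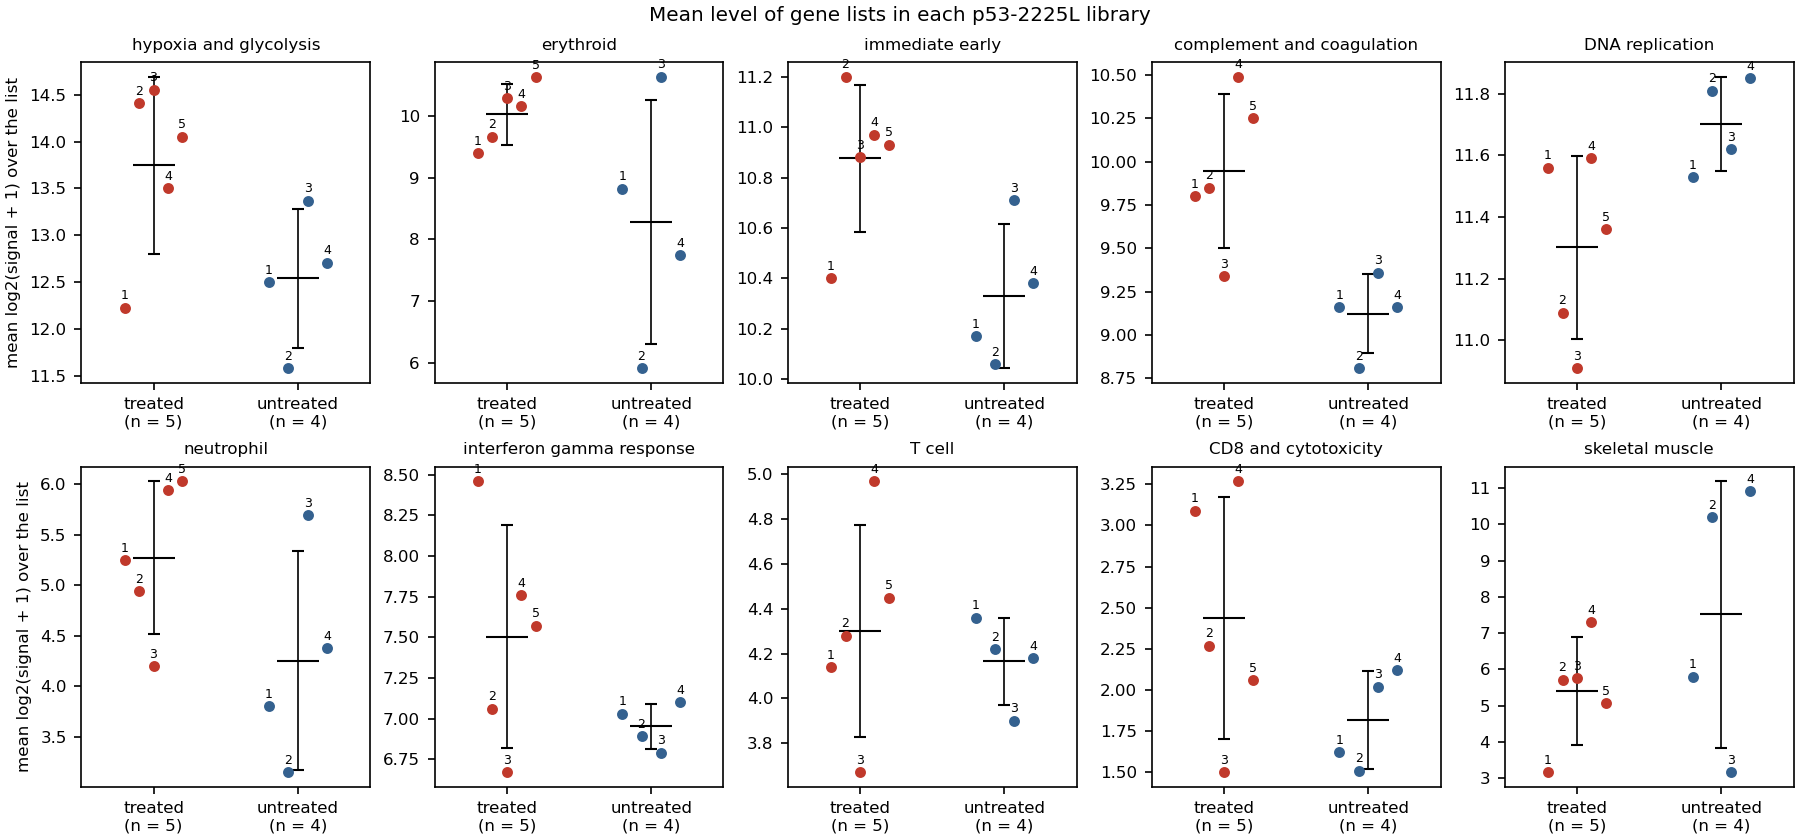
Mean log2(signal + 1) over the genes of each group in every p53-2225L 3 day library, treated left of untreated, with numbers naming the libraries and bars giving mean and SD. Untreated libraries 2 and 4 are high in skeletal muscle genes (10.19 and 10.91) and low in erythroid genes (5.92 and 7.74).

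The immediate early genes, which growth factors, cytokines and tissue handling all induce quickly, differed less uniformly. Of 14 members, 11 were higher, with a median difference of 0.53 that was 0.33 without untreated libraries 2 and 4. An unadjusted p under 0.05 in limma was reached by 5 (Fos, Jun, Junb, Ier3 and Zfp36), against 4.00% of all genes in that direction. Junb, an AP-1 subunit, was the member whose groups stayed apart, at 12.22, 12.36, 12.23, 12.52 and 12.51 in treated against 11.48, 11.12, 11.67 and 11.75 in untreated libraries. Its difference was 0.86 ± 0.31 with an adjusted p of 0.531 in limma. Ier3, an anti-apoptotic early response gene, averaged 12.67 ± 0.45 in treated and 11.22 ± 0.71 in untreated tumours (SD, n = 5 and 4), a difference of 1.44 ± 0.43 with an adjusted p of 0.286 in limma. Egr2, an early growth response factor, lay on the other side with -0.44 ± 0.46.

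Socs3, a feedback inhibitor of cytokine signalling through STAT3, also kept the groups apart, with 11.50, 12.31, 11.84, 12.25 and 12.41 in treated and 10.92, 10.19, 11.17 and 11.25 in untreated libraries. The difference was 1.18 ± 0.34, or 2.26-fold, with an adjusted p of 0.237 in limma and the smallest possible exact permutation p of 0.0159. It was 1.33 within flow cell CAVF1ANXX and 1.12 within the later ones.

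Of 13 heat shock and unfolded protein genes, 8 were higher and 3 had an unadjusted p under 0.05 in limma, against 4.00% of all genes. Ddit3, the factor CHOP that is induced when protein folding fails, read 9.69, 12.91, 13.02, 10.56 and 10.97 in treated and 10.36, 9.23, 10.78 and 9.87 in untreated libraries, a difference of 1.37 ± 0.39 with an adjusted p of 0.221 in limma. Treated libraries 2 and 3 were the high ones. The chaperone Hspa5, the standard marker of the unfolded protein response, differed by 0.35 ± 0.23, and the group median was 0.32, and 0.12 within the later flow cells. The circadian clock genes had 13 of 15 members higher, with a median of 0.33. Of these, 4 had an unadjusted p under 0.05 in limma, against 4.00% of all genes in that direction. Bhlhe41, a clock repressor that hypoxia is also known to induce, had the smallest p with a difference of 0.83 ± 0.33.

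DNA replication genes were lower in treated tumours in 19 of 20 cases. Of these, 6 had an unadjusted p under 0.05 (against 1.81% of all genes in that direction) and the median difference was -0.41. Ccne1, the cyclin that drives entry into S phase, read 10.40, 9.33, 9.10, 10.38 and 10.24 in treated and 10.73, 11.06, 10.52 and 11.12 in untreated libraries. The groups did not overlap, and the difference of -0.96 ± 0.27 had an adjusted p of 0.215 in limma and an exact permutation p of 0.0159, the smallest possible. It was -1.28 within flow cell CAVF1ANXX and -0.51 within the later ones. Cdc6, which loads the replicative helicase, differed by -0.81 ± 0.29, and Rrm2, the regulated subunit of ribonucleotide reductase, by -0.69 ± 0.25. The sliding clamp Pcna and the helicase subunit Mcm4 differed by -0.45 ± 0.17 and -0.53 ± 0.22, and no member was called.

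The mean level of these 20 genes was 11.56, 11.09, 10.91, 11.59 and 11.36 in treated and 11.53, 11.81, 11.62 and 11.85 in untreated libraries. Treated libraries 2 and 3, the highest in hypoxia genes, were the lowest here, and treated libraries 1 and 4 reached the untreated range. The median was -0.47 within flow cell CAVF1ANXX, -0.27 within the later ones, and -0.28 with 1 member at an unadjusted p under 0.05 without untreated libraries 2 and 4. A list of 20 cell cycle genes did not share the direction to that extent: its median was -0.07, with 16 lower and 4 higher and none at an unadjusted p under 0.05, and it was 0.02 within flow cell CAVF1ANXX and -0.21 within the later ones. Mki67, the proliferation marker Ki-67, read 14.59 to 15.06 in treated and 14.60 to 15.04 in untreated libraries.

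The genes of the drug targets had few reads. Pdcd1, which encodes PD1, amounted to an estimated 2, 1, 0, 2 and 1 reads in treated and 1, 2, 0 and 3 reads in untreated libraries, so a difference was not detectable at this depth. Ctla4 (chr1:60887000-60915832) had an estimated 3, 20, 25, 33 and 35 reads in treated and 3, 2, 20 and 3 in untreated libraries. Treated libraries 2 to 5 were high and so was untreated library 3, and treated library 1 was low. The difference was 1.75 ± 0.71, with an adjusted p of 0.678 in limma and an exact permutation p of 0.0476. Foxp3, the factor of regulatory T cells, averaged 4.91 ± 0.36 in treated and 4.17 ± 0.50 in untreated tumours (SD, n = 5 and 4), a difference of 0.75 ± 0.46 with an adjusted p of 0.985 in limma. Tnfrsf9, the costimulatory receptor 4-1BB that activated and regulatory T cells carry, read 7.36, 9.34, 8.88, 10.41 and 8.88 in treated and 6.92, 5.72, 8.80 and 7.19 in untreated libraries, a difference of 1.82 ± 0.65 with an adjusted p of 0.522 in limma. As for Ctla4, untreated library 3 was the high untreated one and treated library 1 the low treated one. Of 10 regulatory T cell genes, 6 were higher, with a median of 0.36 that was 0.14 without untreated libraries 2 and 4. Among the 6, 3 had an unadjusted p under 0.05 in limma, against 4.00% of all genes in that direction.

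Cd274 (chr19:29367455-29388095), which encodes PD-L1, was higher in every treated library, with 7.00, 7.44, 7.21, 7.25 and 7.59, against 6.02, 4.41, 6.54 and 6.24 in untreated ones. These levels correspond to an estimated 114, 125, 155, 151 and 249 reads in treated and 51, 20, 95 and 76 reads in untreated libraries. The difference was 1.50 ± 0.64, or 2.82-fold, with an adjusted p of 0.705 in limma and an exact permutation p of 0.0159; it was 2.01 within flow cell CAVF1ANXX, 1.03 within the later ones and 1.02 without untreated libraries 2 and 4. Vsir (chr10:60346851-60372684), which encodes the inhibitory receptor and ligand VISTA, read 10.16, 11.03, 11.10, 10.86 and 10.80 in treated and 9.87, 9.75, 10.15 and 9.71 in untreated libraries. Its groups nearly touched, at treated library 1 and untreated library 3. The difference was 0.92 ± 0.23, or 1.89-fold, with an adjusted p of 0.175 in limma and an exact permutation p of 0.0159, and was 0.95 within flow cell CAVF1ANXX and 0.90 within the later ones. Among the 13 checkpoint receptors and ligands, 9 were higher, and the median was 0.54, and 0.12 with a pseudocount of 16. Ctla4, Cd274 and Vsir were the 3 with an unadjusted p under 0.05 in limma, against 4.00% of all genes in that direction. Pdcd1lg2, the second PD1 ligand, was listed at 0 in 2 treated and 2 untreated libraries.

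The transcripts of the CD3 chains, the part of the T cell receptor complex that defines the lineage, were scarce in both groups. Cd3e (chr9:44998740-45009627), one of these chains, amounted to an estimated 5, 7, 3, 6 and 2 reads in treated and 1, 1, 0 and 0 reads in untreated libraries. On the log2 scale the levels were 2.72, 3.42, 1.94, 2.81 and 1.35 in treated against 1.17, 1.01, 0 and 0 in untreated libraries. Every treated library was above every untreated one, by a difference of 1.90 ± 0.80 with an adjusted p of 0.705 in limma and an exact permutation p of 0.0159, but at 7 reads or fewer. The difference was 1.60 within flow cell CAVF1ANXX and 2.08 within the later ones. The T cell list as a whole, Cd3e among its 15 members tested, had 7 higher and 8 lower, with a median of -0.07. That median was -0.20 within flow cell CAVF1ANXX and 0.51 within the later ones, and from -0.13 to 0.17 when 1 library was left out, so it gave no stable direction. Some members stood much higher, such as Lck, a kinase of the T cell receptor. Lck had an estimated 637 to 1014 reads in treated and 557 to 1141 reads in untreated libraries. Which cells made it was not tested.

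Cd8a, the coreceptor of cytotoxic T cells, had an estimated 5, 0, 0, 6 and 3 reads in treated and 2, 2, 0 and 5 in untreated libraries, and Ifng, interferon gamma itself, had 1, 0, 0, 1 and 0 in treated and 1, 0, 0 and 1 in untreated libraries. Neither allows a difference to be read at this depth. Cd4 read 6.13 to 8.03 in treated and 6.64 to 9.01 in untreated libraries, a level far above Cd3e; Cd4 is also made by some mouse dendritic cells. Of 14 CD8 and cytotoxicity genes 11 were higher, with a median of 0.51 and 1 (Fasl, the death ligand) at an unadjusted p under 0.05; the median was 0.15 with a pseudocount of 16. Gzmb, the protease granzyme B, was 1.50 ± 1.00 higher, Prf1, the pore-forming perforin, 0.07 ± 1.00, and Ncr1, a receptor of natural killer cells, -0.14 ± 0.87. Jchain, the joining chain of secreted antibodies, differed by 0.18 ± 1.08.

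**Figure D3:**
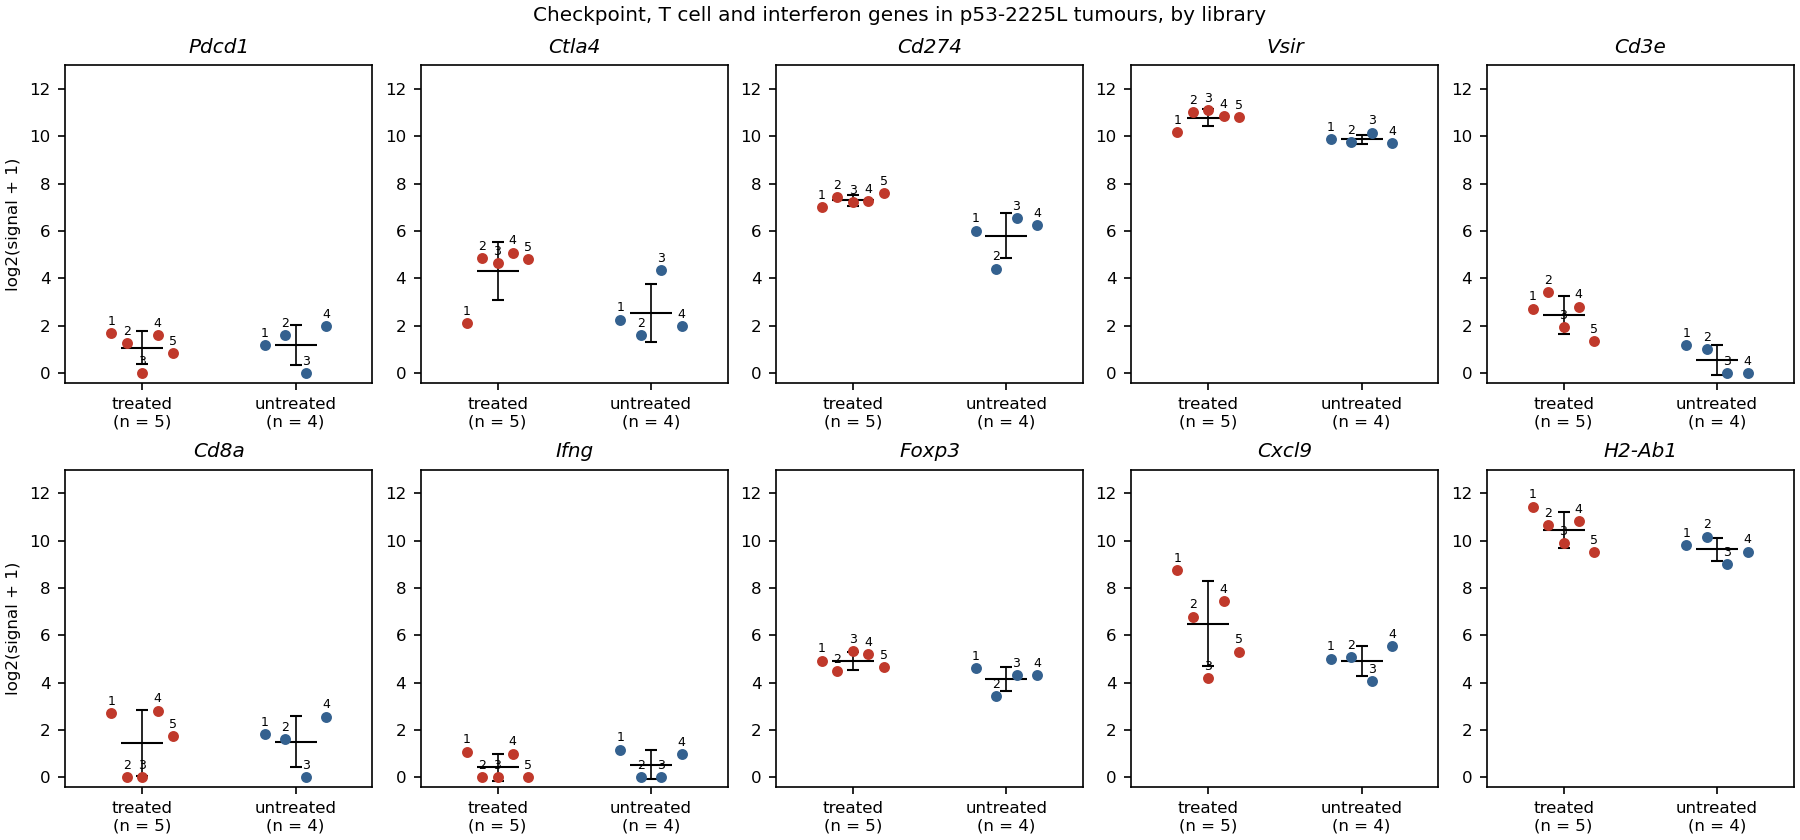
Level of genes of checkpoint receptors, T cells and interferon response in each p53-2225L 3 day library, as log2(signal + 1), treated left of untreated, with numbers naming the libraries and bars giving mean and SD. Cd274, Cd3e and, by a narrow margin, Vsir show no overlap between the groups. The highest value of Ifng is 1.08 in treated and 1.17 in untreated libraries, and that of Cd8a 2.81 and 2.56.

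The interferon gamma response genes were higher in 18 of 22 cases, with a median difference of 0.49 and 1 member, Socs3, at an unadjusted p under 0.05. Treated library 1 was the highest of the 9 in 14 of them. Cxcl9, the chemokine that attracts activated T cells, read 8.76, 6.79, 4.18, 7.43 and 5.31 in treated and 5.01, 5.06, 4.05 and 5.53 in untreated libraries, a difference of 1.58 ± 1.09. Gbp4, a guanylate-binding protein, likewise read 9.72 in treated library 1, against 5.92 to 7.46 in the other treated and 5.71 to 6.52 in the untreated libraries. Cxcl10, a related chemokine, differed by 0.42 ± 0.76. Without treated library 1 the group median was 0.34. Treated library 1 was thus the lowest treated library in hypoxia genes and the highest in interferon genes.

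Type I interferon genes were higher in 19 of 20 cases with a median of 0.35 and none at an unadjusted p under 0.05; the median was 0.01 within flow cell CAVF1ANXX, 0.77 within the later ones and 0.17 without treated library 1. MHC class I genes were higher in 14 of 15 cases with a median of 0.61, again with none; it was 0.81 within flow cell CAVF1ANXX and 0.36 within the later ones. H2-K1, a classical class I heavy chain, read 14.23, 14.33, 13.90, 13.68 and 13.44 in treated and 13.90, 12.17, 13.13 and 13.16 in untreated libraries. The difference was 0.83 ± 0.43 with an adjusted p of 0.89 in limma, and 0.52 without untreated library 2. MHC class II genes had a median of 0.18, and of -0.11 without treated library 1, and H2-Ab1, a class II chain, differed by 0.83 ± 0.62.

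Myeloid cells are the most abundant immune cells of many mammary tumours. The myeloid genes Csf1r and Adgre1 were summed with Ptprc, a gene of white blood cells in general. The sum was alike in range, at 11.11 to 12.17 in treated and 11.37 to 12.15 in untreated libraries. Adgre1, the macrophage marker F4/80, differed by -0.04 ± 0.35. Cd14, the lipopolysaccharide coreceptor, read 11.64, 10.40, 10.67, 10.52 and 10.66 in treated and 10.50, 9.81, 9.98 and 9.82 in untreated libraries, a difference of 0.75 ± 0.33 with an adjusted p of 0.738 in limma. Its groups overlapped by treated library 2 and untreated library 1 alone. Arg1, the arginase of suppressive myeloid cells, was higher in every treated library, with 11.35, 11.90, 11.37, 11.07 and 11.76 against 11.05, 10.02, 10.69 and 10.08 in untreated ones. Its difference was 1.03, with an exact permutation p of 0.0159, but its standard error of 0.94, which is set by all 47 groups of the fit, left an adjusted p of 1.0 in limma.

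Neutrophil genes were higher in 12 of 13 cases with a median of 1.07. Here the high libraries were others: S100a9, a subunit of calprotectin, read 7.10, 6.55, 5.17, 9.32 and 9.24 in treated and 4.77, 2.60, 8.44 and 6.82 in untreated libraries. Its partner S100a8 followed the same order of libraries 4 and 5 above the rest, and both had an unadjusted p under 0.05, with adjusted p-values of 0.812 and 0.817 in limma. The median of the group was 0.41 with a pseudocount of 16. The inflammatory genes Ptgs2, the cyclooxygenase COX-2, and Nos2, the inducible nitric oxide synthase, differed by 1.85 ± 0.72 and 1.42 ± 0.76, and treated library 4 held the highest value of each.

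Complement and coagulation genes were higher in 11 of 12 cases, with a median of 0.90 and 6 members at an unadjusted p under 0.05, against 4.00% of all genes. F3, tissue factor, which starts clotting, read 9.23, 9.06, 8.60, 8.77 and 9.09 in treated and 7.78, 7.31, 8.15 and 7.26 in untreated libraries. The groups did not overlap; the difference was 1.33 ± 0.45, or 2.51-fold, with an adjusted p of 0.498 in limma and an exact permutation p of 0.0159, and it was 1.42 within flow cell CAVF1ANXX and 1.22 within the later ones. C2, a component of the classical pathway, was also apart, with a difference of 1.34 ± 0.54, while Serping1, the C1 inhibitor, and C1s1, a protease of the C1 complex, were higher by 1.48 ± 0.54 and 1.25 ± 0.50 with groups that overlapped. Without untreated libraries 2 and 4 the group median was 0.63, with 1 member at an unadjusted p under 0.05.

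Single epithelial markers differed by less than their standard errors. Epcam, the epithelial adhesion molecule, averaged 14.74 ± 0.13 in treated and 14.71 ± 0.13 in untreated tumours (SD, n = 5 and 4). Krt8, a luminal keratin, and Krt14, a basal one, differed by 0.20 ± 1.12 and 0.19 ± 1.39, with standard errors set mostly by other models of the fit. Keratinised squamous genes were higher in 10 of 10 cases with a median of 0.54, basal epithelial genes in 11 of 15 with 0.29 and luminal genes in 9 of 15 with 0.16, none of them at an unadjusted p under 0.05. Without untreated libraries 2 and 4 these medians were 0.28, 0.03 and 0.02. Vim, the intermediate filament of mesenchymal cells, differed by 0.15 ± 0.29. Of 15 fibroblast and collagen genes 14 were higher, by a median of 0.36 with none at an unadjusted p under 0.05; the median was 0.10 within flow cell CAVF1ANXX and 0.77 within the later ones. Among the targets of p53, Cdkn1a, the cell cycle inhibitor p21, read 9.77, 12.50, 12.62, 11.44 and 12.34 in treated and 10.25, 9.32, 11.76 and 10.99 in untreated libraries, with treated library 1 low as in the hypoxia genes; the difference was 1.15 ± 0.42 and the adjusted p 0.56 in limma. Mdm2, the p53 ligase and the classical target, differed by 0.20 ± 0.23, and the list of 14 had a median of 0.26, and 0.15 without untreated libraries 2 and 4.

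Other transplanted models of the same study give the size of these differences elsewhere. Each set of tumours has its own untreated controls, and the header gives Pretreatment for all 47 untreated 3 day libraries of the series, so time and therapy cannot be told apart in the other models at 3 days either if it holds. The 9 p53-2225L libraries enter every test of a difference between models. The resistant model p53-2336R at 3 days (5 treated, 3 untreated) and the resistant model T11 at 3 days (4 and 4) had 0 genes called each (0%). In p53-2225L tumours taken at end stage (3 treated, 5 untreated), 19 genes (0.0911%) were called, 16 higher (0.0767%) and 3 lower (0.0144%). The mean over the sensitive models T11-UV, T11-Apobec, KPB25L and KPB25L-UV at 3 days had 2886 genes called (13.8%), 1444 higher (6.93%) and 1442 lower (6.92%), from 15 treated and 17 untreated libraries. The larger number of libraries behind that mean lowers its standard errors, so the counts do not compare sizes of effect.

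The tests of the differences themselves called 0 genes (0%) for p53-2225L against p53-2336R, against T11, against its own end stage and against the sensitive mean. At an unadjusted p under 0.05 they gave 406 (1.95%), 796 (3.82%), 634 (3.04%) and 1552 (7.44%) genes. The hypoxia group, with its median of 1.34 at 3 days in p53-2225L, had medians of 0.01 in p53-2336R, -0.09 in T11, -0.35 in p53-2225L at end stage and 0.22 in the sensitive mean. That mean joins unlike models: the group's own median was -0.18 in T11-UV, 0.53 in T11-Apobec with 13 of 14 members higher, 0.28 in KPB25L and 0.02 in KPB25L-UV. Of its 14 members, 4, 5, 10 and 4 had an unadjusted p under 0.05 in the 4 tests of the difference, and none was called.

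Vegfa gives the levels behind these medians. Its median level was 15.82 in treated and 13.90 in untreated p53-2225L tumours at 3 days. At end stage it was 13.84 in treated and 13.97 in untreated tumours. In p53-2336R it was 12.15 in treated and 12.50 in untreated tumours, and in T11 it was 13.74 in treated and 13.98 in untreated tumours. Among the sensitive models it was 13.76 in treated and 14.02 in untreated T11-UV, 14.12 in treated and 13.64 in untreated T11-Apobec, 13.77 in treated and 13.61 in untreated KPB25L, and 13.97 in treated and 13.53 in untreated KPB25L-UV tumours. The p53-2225L difference exceeded that of p53-2336R by 1.72 ± 0.66, that of T11 by 1.96 ± 0.65, that of end stage by 1.94 ± 0.66 and the sensitive mean by 1.56 ± 0.50, with adjusted p-values of 1.0, 1.0, 1.0 and 0.44 in limma. For Fos the excess was 2.05 ± 0.67, 2.21 ± 0.66, 2.35 ± 0.67 and 2.02 ± 0.52, with adjusted p-values of 1.0, 1.0, 1.0 and 0.2 in limma. The smallest adjusted p among the named genes belonged to Efna1 against the sensitive mean, where the difference of 1.29 ± 0.27 had an adjusted p of 0.0936 in limma. Vsir exceeded the sensitive mean by 0.84 ± 0.26 with an adjusted p of 0.44 in limma.

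The interferon gamma genes had medians of 0.49 in p53-2225L, 0.78 in p53-2336R, 1.34 in T11, 0.10 at end stage and 1.11 in the sensitive mean, where 14 of the 22 were called higher. The tests of the difference between p53-2225L and the sensitive mean called none of the 22, with 1 higher and 2 lower at an unadjusted p under 0.05. Ifng was 1.97 higher in the sensitive mean (adjusted p 0.0169 in limma) and -0.12 in p53-2225L. There it had an estimated 1 read or fewer per library. The difference of -2.09 ± 1.19 had an unadjusted p of 0.0804 in limma. Mean Ifng levels in treated and untreated tumours were 4.96 and 3.0 in the resistant T11 and 2.39 and 1.12 in the resistant p53-2336R. Among the sensitive models they were 6.67 and 3.69 in T11-UV, 9.98 and 7.08 in T11-Apobec and 5.52 and 2.13 in KPB25L. In KPB25L-UV the treated mean was the lower, at 3.91 against 5.32. Cd274 was 1.31 ± 0.34 higher in the sensitive mean (adjusted p 0.0104 in limma) and 1.50 ± 0.64 in p53-2225L, and these differed by 0.19 ± 0.72. T cell genes had a median of -0.07 in p53-2225L, 1.36 in p53-2336R, 1.06 in T11, 0.43 at end stage and 0.36 in the sensitive mean. In the 4 tests of the difference, 2, 1, 1 and 0 of the 15 members had an unadjusted p under 0.05 in limma. In each of these the difference was lower in p53-2225L at 3 days. Over all genes the shares, in both directions, were 1.95%, 3.82%, 3.04% and 7.44%.

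Cd3e levels are given side by side, without a test between models. Cd3e had a median of 2.72 in treated and 0.50 in untreated p53-2225L tumours at 3 days, of 4.23 in treated and 3.71 in untreated p53-2336R tumours, and of 6.66 in treated and 5.93 in untreated T11 tumours. Among the 4 sensitive models its median was higher in treated tumours in T11-UV, at 7.96 against 5.85, and in KPB25L, at 9.13 against 5.81. The Cd3e median was lower in treated tumours in T11-Apobec, at 8.65 against 9.24, and in KPB25L-UV, at 7.28 against 8.82. Replication genes, with a median of -0.41 in p53-2225L, had medians of -0.11 in p53-2336R, 0.15 in T11, 0.10 at end stage and -0.07 in the sensitive mean. Of the 20, 0 had an unadjusted p under 0.05 in limma in the tests against p53-2336R and 6 in those against T11. The tests against end stage gave 4 and those against the sensitive mean 6, with none called. Over all genes tested the shares in these tests were 1.95%, 3.82%, 3.04% and 7.44%.

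**Figure D4:**
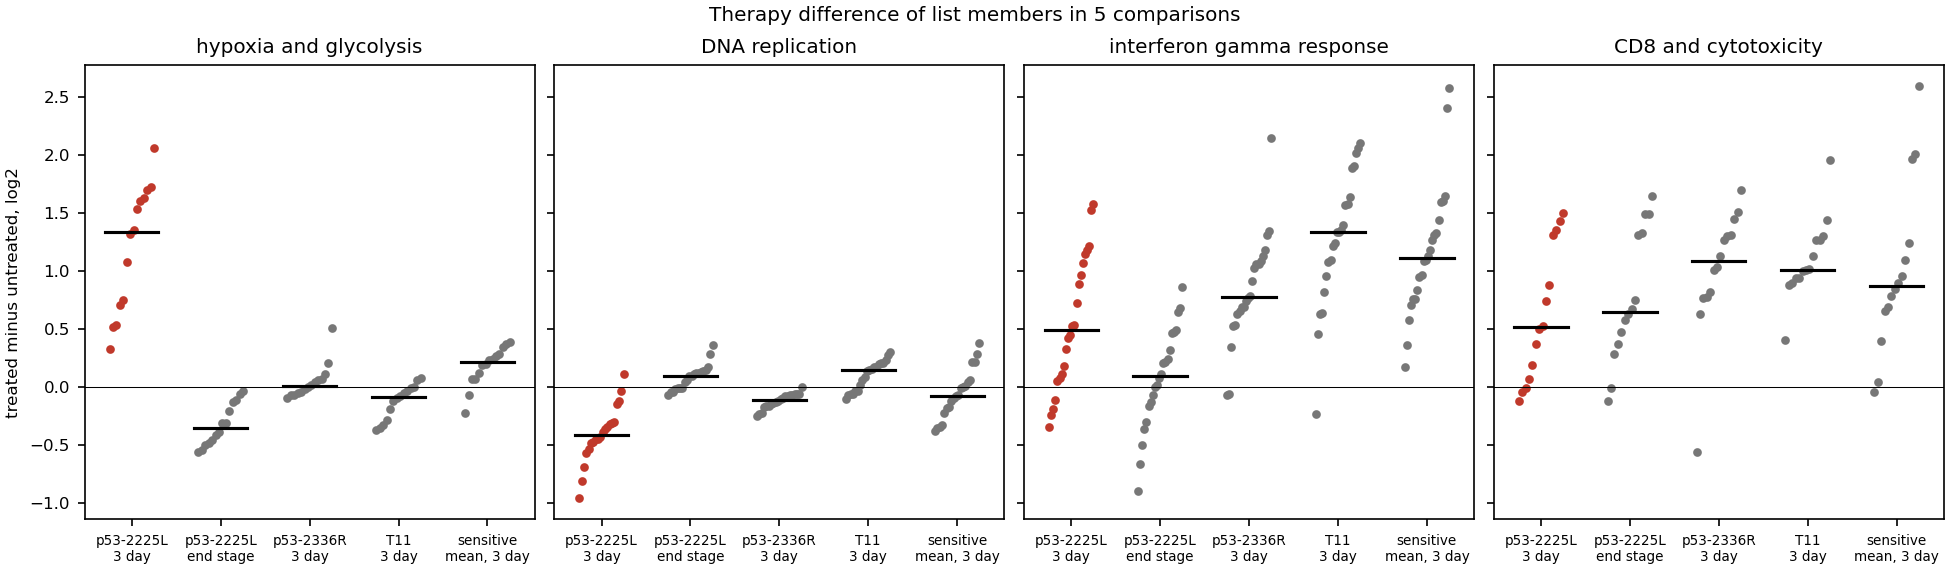
Treated minus untreated log2 difference (vertical axis) of the genes of 4 groups in p53-2225L at 3 days and in the sets it was compared with; each point is a gene and each bar the median of the group. The hypoxia group stands at 1.34 in p53-2225L at 3 days and between -0.35 and 0.22 in the other sets, the last of which is a mean over 4 models that ranged from -0.18 to 0.53.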

How the data were processed

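RNA of 9 p53-2225L tumours at 3 days, 5 treated and 4 untreated, was compared. Per the labels' protocols, RNeasy kits (Qiagen) and the TruSeq mRNA kit (Illumina) gave paired-end HiSeq libraries. The tools were Salmon, STAR, Picard and SAMtools on build mm10, per the submitters' processing notes; versions, order and annotation were not stated there. Each deposited value is a gene signal that the authors scaled to a fixed upper quartile, per the file headers, which was 2048.974 in each library. What 1 read is worth was inferred from steps between low values; 67.9 to 72.1% of values per library were whole reads within a tolerance of 0.01, so no count test was used. Estimated reads therefore limit how finely a low gene can be read.

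Of 45724 entries, 39 with names turned into dates and 28 of 14 repeated symbols were left out (0.246 to 0.283% of the signal). A pseudocount of 1 was added before log2, which understates changes of low genes. Of the genes above 0 in 4 or more samples, the 66.7% with the highest mean entered the test. A model with 1 mean for each of 47 groups over 192 samples (145 residual degrees of freedom; 2 libraries of 1 KPB25L mouse averaged) was fitted with limma 3.58.1 in R 4.3.3, with variances that follow the mean, and tested on simulated data. All groups share 1 estimate of spread. The table held 71 further library columns that were not used. Exact two-sided permutation tests used scipy 1.17.1. Promoters came from RefSeq (GRCm38.p6) and gene positions from GENCODE vM21.

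The gene lists and the genes in them were chosen with earlier results of these data known. Named by rule were the 6 genes per direction with the smallest unadjusted p among those above the median mean, since none was called (predicted genes and receptor segments passed over), a panel of 30 genes, and the member of each list with the smallest unadjusted p. Other members are shown to describe their list and were chosen after their values were seen. Alternatives were a pseudocount of 16, no filter on the mean, median rescaling, robust variances, the spread of 2 or 4 groups, the KPB25L-UV groups left out, each set of flow cells and their mean, and each library left out. Leaving out untreated libraries 2 and 4 together was added after the data were seen.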

Additional observations from a re-analysis of the deposited data

Results flagged for a closer look

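Within a group of 4 or 5 libraries, 1 library stood far from the others, by Dixon's criterion at the 95% level, in 11 of 282 sets of values examined; chance alone gives about 1 in 20, or 14.1. Treated library 1 accounted for 4 of these. It was low in the hypoxia gene Adm, at 7.66 where the other treated libraries read 9.99 to 10.83, and low in Ctla4, at 2.12 against 4.63 to 5.09 in the other treated libraries. It was high in Hoxa10, at 8.86 against 4.62 to 5.29, and in Cd14, at 11.64 against 10.40 to 10.67.

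Chil3, a chitinase-like protein of macrophages, read 4.89 in treated library 5 and 1.91 to 2.59 in the other treated libraries. Vim read 14.68 in treated library 3 and 15.18 to 15.32 in the others. Among untreated libraries, library 4 read 1.98 for Lta, the cytokine lymphotoxin alpha, where the others read 3.29 to 3.55, and 1.57 for Klk1, a kallikrein protease, which the others list at 0. In the means over gene lists, cell cycle genes stood at 12.46 in treated library 5 and 12.67 to 12.75 in the other treated libraries. Heat shock genes stood at 12.69 in untreated library 4 and 12.27 to 12.31 in the other untreated libraries, and genes of lymphoid tissue at 2.33 in untreated library 2 and 2.67 to 2.70 in the others.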

How the results depend on the processing

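No paired analysis was possible because the labels give these libraries no replicate numbers; the numbers used here follow their order of listing. The share of genes called between treated and untreated p53-2225L tumours was 0%, also with median rescaling, robust variances, the spread of 2 or of 4 groups, the KPB25L-UV groups left out, the later flow cells alone, and untreated libraries 2 and 4 left out. It was 0.403% of 31273 genes with no filter on the mean, 0.293% with a pseudocount of 16, 0.024% (5 genes) within flow cell CAVF1ANXX, 0.0048% (1 gene) for the mean over both sets of flow cells, and 0 to 0.24% when 1 library was left out, the highest without treated library 1 (50 genes) and the next without untreated library 3 (15 genes, 0.0719%). The cause was not tested.

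The difference from p53-2336R had 0.0831% called with no filter, 0.00959% with a pseudocount of 16 and 0% in every fit without 1 library. That from T11 had 0.0384% with no filter, 0.0144% with the pseudocount and 0 to 0.0048% without 1 library. That from end stage had 0.237% with no filter, 0.0767% with the pseudocount, 0.0048% without the KPB25L-UV groups and 0 to 0.0815% without 1 library. That from the sensitive mean had 0.208% with no filter, 0.149% with the pseudocount, 0.12% without the KPB25L-UV groups and 0 to 0.0719% without 1 library. The highest of these last 2 ranges came without treated library 1. Of 96 named genes, recomputed in 1920 values, 20 changed direction in at least 1 alternative, in 68 values. Of these 20, 1 had an unadjusted p under 0.05 in limma with all 9 libraries. This was Atp6v0a2, at 0.06 within the later flow cells, against -0.49 with all libraries. In 47 values the threshold was passed, and 15 others moved by more than the spread between libraries. All 14 hypoxia genes were higher in treated tumours under each of the 20 alternatives. Depth limits genes of a few reads, such as Cd3e and Ifng.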

Other observations

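Among stromal and signalling genes, 13 of 14 matrix remodelling genes were higher in treated tumours, with a median difference of 0.51 and 1 at an unadjusted p under 0.05; the median was 0.32 within flow cell CAVF1ANXX and 0.84 within the later ones. That gene was Mmp3, a stromal matrix protease, with 7.26, 6.91, 5.51, 8.63 and 7.02 in treated and 5.71, 4.34, 6.41 and 5.14 in untreated libraries, and an adjusted p of 0.768 in limma. Smad7, an inhibitor of TGF beta signalling that the pathway itself induces, averaged 10.42 ± 0.36 in treated and 9.75 ± 0.17 in untreated tumours (SD, n = 5 and 4), a difference of 0.67 ± 0.22 with an adjusted p of 0.419 in limma. The TGF beta feedback list as a whole had a median of 0.24, and 0.03 without untreated libraries 2 and 4. Among Wnt targets, Sp5 averaged 4.72 ± 2.39 in treated and 3.03 ± 0.84 in untreated tumours (SD, n = 5 and 4), with 8.01 in treated library 1 and 2.37 in treated library 2. Axin2, another Wnt target, differed by -0.28 ± 0.43, and the list had a median of -0.13 with 4 genes higher and 7 lower, and of 0.09 within the later flow cells. All 15 cytosolic ribosomal protein genes were higher by a median of 0.14 (-0.01 within the later flow cells), with 0 called and 0 at an unadjusted p under 0.05 in limma.

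Elovl3, a fatty acid elongase of brown fat and skin glands, was lower in every treated library, with 5.55, 4.91, 6.53, 5.32 and 6.12 against 7.32, 7.58, 6.89 and 6.67 in untreated libraries. The exact permutation p was 0.0159, and the adjusted p in limma, whose spread is shared with all other groups, was 1.0. The other 7 brown adipocyte genes did not share a direction, with 4 higher and 3 lower.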
